A study of Mus musculus with 6 samples.

Results

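Adipokines are hormones and enzymes that fat tissue releases into the blood. The 10 adipokine genes Lep, Adipoq, Retn, Rbp4, Nampt, Apln, Cfd, Metrnl, Angptl4 and Fam20a were chosen by symbol out of the 16619 genes of a gene expression table, and all 10 were found and passed a filter on low values of at least 0.5 CPM in at least 3 libraries, as did 16109 genes in all. The table holds RNA-seq of white fat labelled as epididymal (eWAT) from mice of both groups described as females of 6 months. All mice carried loxP sites at both copies of Prmt5 (Prmt5 flox/flox), the gene of a protein arginine methyltransferase. Prmt5AKO mice (3 libraries, labelled KO) also carried Adipoq-Cre, a recombinase under the adiponectin promoter that deletes Prmt5 in adipocytes but not in the other cells of the fat pad, while wild-type controls (WT, 3 libraries) had no Cre.

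Leptin, encoded by Lep, is released in proportion to fat mass and reduces appetite through its receptor in the brain. Adiponectin, encoded by Adipoq, circulates as large multimers and raises insulin sensitivity in liver and muscle. Adipsin, encoded by Cfd, is complement factor D, the serine protease that cleaves factor B in the alternative complement pathway, and in mice it is made mainly by adipocytes.

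Start-site regions are shown for Cfd, the adipokine whose genotypes separated, for Adipoq, whose regulatory sequence drives the Cre, and for Lep. Each runs from 250 bases before to 50 bases after the RefSeq start in GRCm38.p6, on the plus strand, at chr10:79890603-79890902 for Cfd, chr16:23146286-23146585 for Adipoq and chr6:29059971-29060270 for Lep. Capitals mark matches, on either strand, to CCAAT, to the C/EBP motif TTGCNNAA or to the Sp1 motif GGGCGG.
Cfd: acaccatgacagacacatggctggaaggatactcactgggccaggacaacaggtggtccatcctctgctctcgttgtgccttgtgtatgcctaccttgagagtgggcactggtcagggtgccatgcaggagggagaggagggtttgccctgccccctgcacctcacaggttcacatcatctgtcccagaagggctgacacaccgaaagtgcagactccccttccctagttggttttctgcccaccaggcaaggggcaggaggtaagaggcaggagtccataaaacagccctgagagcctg
Adipoq: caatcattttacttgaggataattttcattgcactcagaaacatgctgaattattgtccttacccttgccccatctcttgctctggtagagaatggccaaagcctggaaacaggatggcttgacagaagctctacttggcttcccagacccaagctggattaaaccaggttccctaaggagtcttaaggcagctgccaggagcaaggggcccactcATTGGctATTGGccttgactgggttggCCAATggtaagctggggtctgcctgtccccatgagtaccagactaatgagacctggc
Lep: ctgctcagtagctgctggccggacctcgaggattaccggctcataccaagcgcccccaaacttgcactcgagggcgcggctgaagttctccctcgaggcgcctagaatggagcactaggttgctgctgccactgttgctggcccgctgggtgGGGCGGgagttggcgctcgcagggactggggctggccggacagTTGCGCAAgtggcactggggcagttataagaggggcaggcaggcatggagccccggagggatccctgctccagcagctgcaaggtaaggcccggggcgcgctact
The Adipoq window held 3 CCAAT matches, beginning at -34, -27 and -7 from the start site, and 37.4% of 32851 mouse promoter windows of this length held at least 1. The Lep window held a C/EBP match at -55 and an Sp1 match at -98, found in 10.8% and 35.7% of all windows. The Cfd and Retn windows held none of these motifs, nor TATAAA or AGGTCA (13.6% and 16.3% of windows). Of the 9 adipokines with a window in the table, 3 held CCAAT, 2 the C/EBP motif and 6 the Sp1 motif.

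The libraries held 18731215 to 27445096 reads in genes. Prmt5 itself was at 36.6, 59.7 and 39.7 counts per 1000000 reads of scaled library size (CPM) in the WT libraries and at 14.6, 22.0 and 28.5 CPM in the Prmt5AKO libraries, so that the genotypes did not overlap and the Prmt5AKO mean was 47.9% of the WT mean. The adipocyte markers were abundant in every library, with sums over 19 genes of 59019 to 61900 CPM in WT and 48939 to 58534 CPM in Prmt5AKO. Of the male tract markers listed, the 1 measured, Rnase10, was at 0.512 to 2.99 CPM. The libraries of 1 genotype differed strongly among themselves: nuclear-retained RNAs such as Neat1 and Malat1 (8 genes) summed to 3137, 838 and 2193 CPM in WT and to 3141, 219 and 223 CPM in Prmt5AKO, and the 13 mitochondrially encoded mRNAs to 28693 to 60144 and 14373 to 44782 CPM. Albumin mRNA (Alb), a liver marker, was at 322 CPM in WT replicate 2 and at 10.3 to 120 CPM in the other libraries. No source states whether 1 mouse gave 1 library, so the p-values rest on a spread among libraries that could be technical.

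Cfd (ENSMUSG00000061780, chr10:79890853-79892655, plus strand, GRCm38, GENCODE vM21) was the most abundant of the 10 adipokines in every library and the only one whose genotypes did not overlap. It was at 11232, 16319 and 12105 CPM in WT and at 4070, 5804 and 6222 CPM in Prmt5AKO. The lowest WT library was 1.81 times the highest Prmt5AKO library, and the Prmt5AKO mean (5366 ± 1141 CPM, SD, n = 3) was 40.6% of the WT mean (13218 ± 2720 CPM, SD, n = 3). Per kilobase of exon, Cfd ranked 1 or 2 among all genes in the WT libraries and between 3 and 7 in the Prmt5AKO libraries. The log2 fold change on log2(CPM + 0.5) was -1.31 with a standard error of 0.55 and a 95% interval of -2.57 to -0.04. limma gave an unadjusted p of 0.0449 and a Benjamini-Hochberg adjusted p of 0.564 over all 16109 genes, so Cfd did not pass the call rule of an adjusted p under 0.05 with a log2 change beyond 0.5. The exact two-sided permutation test gave 0.1, the smallest p that 3 against 3 libraries allow.

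The call on Cfd depended on the model of the spread. Its sign could not change when libraries were left out, since the genotypes did not overlap. The spread of Cfd itself within genotypes was 0.31 on the log2 scale, and limma moved it towards a value of 0.90 fitted to genes of that abundance. With a prior that does not follow abundance, an alternative chosen after the data had been seen, the adjusted p was 0.311. On reads recovered from the table, DESeq2 gave an adjusted p of 0.0107 and edgeR's likelihood ratio test 0.0459, both past the threshold, where edgeR's quasi-likelihood test gave 0.449. Under those rules 0.670% and 0.329% of all genes were called lower in Prmt5AKO by DESeq2 and by the likelihood ratio test, and 2.04% by the latter with the replicate number as a block, where Cfd was called as well. Over the 25 alternatives, some of which keep the estimate unchanged, the log2 fold change of Cfd lay between -1.42 and -1.08. The upper end came from a fit with a weight for each library (array weights), whose estimation did not converge. Without that fit it was -1.12. The adjusted p ran from 0.000882 to 0.998.

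Other measured values separated the genotypes in the same direction as Cfd. The adipocyte marker sums given above did not overlap between genotypes, but of the 19 markers 9 were positive and 10 negative, with a median of -0.03 on the log2 scale, and the most abundant, Car3 (carbonic anhydrase 3) and Fabp4 (the fatty acid binding protein of adipocytes), had log2 fold changes of -0.30 and -0.43. The 10 progenitor and fibroblast markers summed to 10010 to 14735 CPM in WT and to 7353 to 8088 CPM in Prmt5AKO. The part of the cell mixture in the Cfd difference was not tested, and in bulk tissue fewer cells of a type and less RNA per cell cannot be told apart. Without replicate 1 of both genotypes the log2 fold change of Cfd was -1.23.

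**Figure D1:**
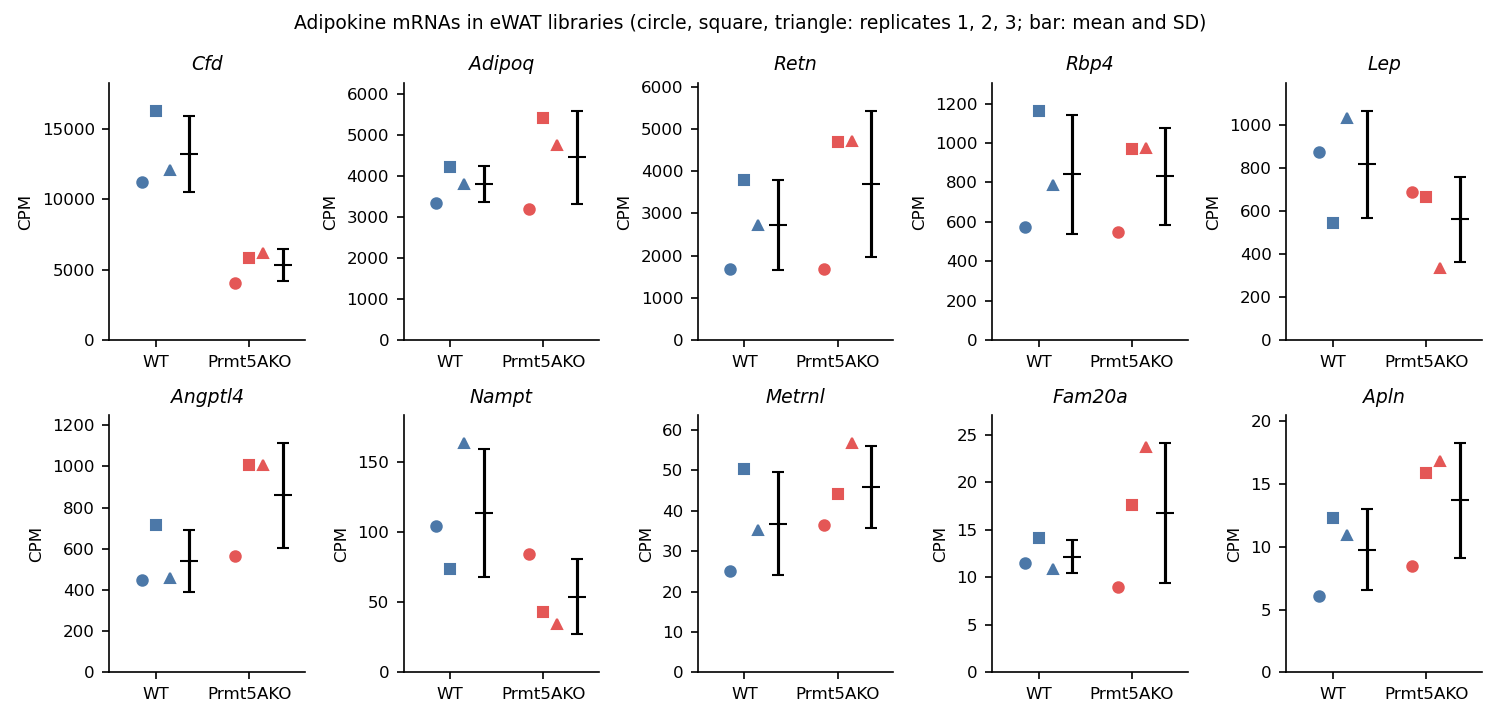
CPM of each of the 10 adipokines in the 3 WT (blue) and 3 Prmt5AKO (red) libraries, with replicate 1 as a circle, 2 as a square and 3 as a triangle, and the mean and SD in black; each vertical axis starts at 0. Cfd alone leaves a gap between the genotypes, from 6222 to 11232 CPM, and in 7 panels the circle is the lowest point of both genotypes.

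Adiponectin mRNA did not separate the genotypes. Adipoq (ENSMUSG00000022878, chr16:23146536-23158028, plus strand) was at 3352, 4234 and 3823 CPM in WT and at 3194, 5420 and 4772 CPM in Prmt5AKO. The lowest and the 2 highest libraries were Prmt5AKO, and the WT values lay between them. Its log2 fold change was 0.20 with a 95% interval of -0.86 to 1.26 (limma, adjusted p = 0.844, exact permutation p = 0.5). Prmt5AKO mice carry, beside this gene, the Adipoq-Cre transgene, which WT mice lack.

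Retn (ENSMUSG00000012705, chr8:3655770-3660110, plus strand) encodes resistin, which adipocytes secrete in mice and which opposes insulin action there. It was at 1675, 3798 and 2714 CPM in WT and at 1692, 4687 and 4713 CPM in Prmt5AKO. Replicate 1 of both genotypes stood low and almost level, and the spread within WT was 2.27-fold and within Prmt5AKO 2.79-fold, the widest within a genotype among the 10. For Retn limma estimated a log2 fold change of 0.37 with a 95% interval of -0.95 to 1.70 (adjusted p = 0.767, exact permutation p = 0.5).

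The mean leptin mRNA was lower in Prmt5AKO, at 563 ± 197.3 CPM against 818 ± 249.4 CPM in WT (SD, n = 3), within the spread of the libraries. Lep (ENSMUSG00000059201, chr6:29060220-29073877, plus strand) was at 876, 544 and 1033 CPM in WT and at 687, 666 and 335 CPM in Prmt5AKO. WT replicate 2 lay below the 2 higher Prmt5AKO libraries, so the groups overlapped, and the lowest library was Prmt5AKO replicate 3. Lep had a log2 fold change of -0.56 with a 95% interval of -1.51 to 0.39 (limma, adjusted p = 0.621, exact permutation p = 0.3).

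Nampt (ENSMUSG00000020572, chr12:32819545-32853349, plus strand) encodes the rate-limiting enzyme of NAD salvage, which is also found outside cells and was named visfatin there. It was at 104, 74.1 and 164 CPM in WT and at 84.6, 43.4 and 34.4 CPM in Prmt5AKO. The 2 lowest libraries were Prmt5AKO, while Prmt5AKO replicate 1 lay above WT replicate 2. Nampt had a log2 fold change of -1.10 with a 95% interval of -2.07 to -0.13 (limma, unadjusted p = 0.0305, adjusted p = 0.516, exact permutation p = 0.2). The nuclear-retained RNAs were also lowest in Prmt5AKO replicates 2 and 3, at 219 and 223 CPM against 838 to 3141 CPM in the other libraries, and their part in the Nampt difference was not tested. Without replicate 1 of both genotypes the log2 fold change of Nampt was -1.50 with an adjusted p of 0.0573 in limma. With 1 library left out it ran from -1.47 (without Prmt5AKO replicate 1) to -0.80 (without WT replicate 3). The adjusted p in limma without WT replicate 3 was 0.897.

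Angptl4 (ENSMUSG00000002289, chr17:33773750-33781830, minus strand) encodes angiopoietin-like 4, a secreted inhibitor of lipoprotein lipase that PPAR receptors and fasting induce. It was at 449.8, 715.8 and 459.5 CPM in WT and at 565.5, 1004 and 1009 CPM in Prmt5AKO. Replicates 2 and 3 of Prmt5AKO exceeded all WT libraries, but replicate 1 lay below WT replicate 2. The log2 fold change, the highest of the 10, was 0.65 with a 95% interval of -0.21 to 1.51 (limma, adjusted p = 0.601, exact permutation p = 0.2).

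Rbp4 (ENSMUSG00000024990, chr19:38116629-38125281, minus strand) encodes the plasma carrier of retinol, which is linked to insulin resistance when it is raised in fat. It was at 572, 1164 and 785 CPM in WT and at 548, 968 and 976 CPM in Prmt5AKO. The means nearly coincided, at 840 ± 300 CPM and 831 ± 245 CPM (SD, n = 3), and the highest and the second-lowest library were both WT. The log2 fold change was 0.00 to 2 decimals, with a 95% interval of -0.94 to 0.93 (limma, adjusted p = 0.996, exact permutation p = 0.9), so the data set no direction and did not exclude changes of that size.

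The genotypes also overlapped for Metrnl and for the least abundant adipokines, Fam20a and Apln, which had 194 to 502 and 143 to 356 reads a library. Metrnl (ENSMUSG00000039208, chr11:121701544-121716306, plus strand), encoding meteorin-like, a secreted factor of fat and muscle linked to browning in mice, was at 24.96, 50.2 and 35.2 CPM in WT and at 36.6, 44.2 and 56.8 CPM in Prmt5AKO. Apln (ENSMUSG00000037010, chrX:48025146-48034853, minus strand), encoding apelin, the ligand of the receptor APJ, was at 6.10, 12.3 and 10.9 CPM in WT and at 8.44, 15.8 and 16.8 CPM in Prmt5AKO. Fam20a (ENSMUSG00000020614, chr11:109669749-109722279, minus strand), encoding a secretory-pathway pseudokinase that activates its relative FAM20C, was at 11.5, 14.1 and 10.9 CPM in WT and at 8.999, 17.6 and 23.7 CPM in Prmt5AKO. In each of these genes the highest library was Prmt5AKO replicate 3, and Prmt5AKO replicate 1 lay below at least 1 WT library. Log2 fold changes were 0.35 for Metrnl (95% interval -0.41 to 1.10), 0.46 for Apln (-0.45 to 1.38) and 0.35 for Fam20a (-0.54 to 1.25). Their adjusted p-values in limma were 0.660, 0.641 and 0.692.

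Of the 10 adipokines 0 passed the call rule in limma, as did 0.00% of all genes tested. At an unadjusted p under 0.05 in limma, Nampt and Cfd were lower and none was higher, where 3.93% of all genes were lower and 4.79% higher. The genotypes did not overlap for 1 adipokine, Cfd, which was lower, and for 0 that were higher, beside 6.28% and 8.16% of all genes. The other 9 adipokines overlapped between genotypes. Log2 fold changes were positive for 6 and negative for 4, with a median of 0.27 beside -0.03 over all genes. Among all 16109 genes the smallest adjusted p in limma was 0.0686, and 1404 genes had an unadjusted p under 0.05. Prmt5, the gene deleted in adipocytes, did not pass the call rule either, with a log2 fold change of -1.06 (adjusted p = 0.436 in limma). DESeq2 gave Prmt5 an adjusted p of 0.202 and edgeR's likelihood ratio test 0.267, or 0.0366 with the replicate number as a block.

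**Figure D2:**
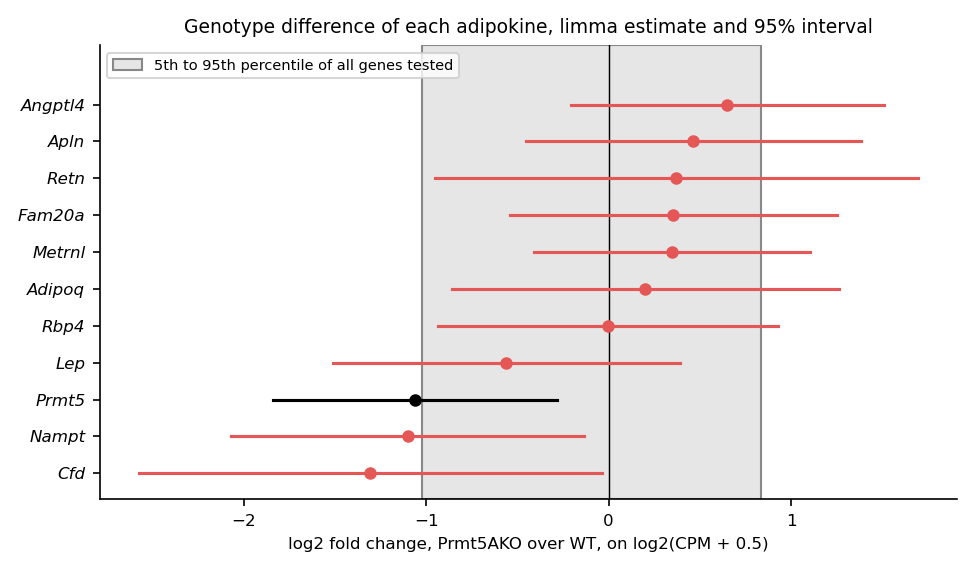
Log2 fold change of Prmt5AKO over WT for each adipokine (red) and Prmt5 (black), as limma's estimate with its 95% interval; the grey band spans the 5th to 95th percentile of all genes, -1.02 to 0.84. Cfd and Nampt lie below the band at -1.31 and -1.10 with intervals below 0, and the other 8 adipokines lie inside it with intervals that include 0.

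Per kilobase of exon, the adipokine mRNAs spanned more than 3 orders of magnitude in level. In WT the order was Cfd at 14337 CPM per kb, Adipoq at 2754, Retn at 1728, Rbp4 at 626, Lep at 244, Angptl4 at 153, Metrnl at 23.2, Nampt at 22.6, Fam20a at 3.35 and Apln at 3.10 CPM per kb. The WT libraries of the neighbours Lep and Angptl4, Metrnl and Nampt, and Fam20a and Apln overlapped. In Prmt5AKO the mean of Angptl4, 243 CPM per kb, exceeded that of Lep, 168 CPM per kb, with overlapping libraries. Nampt, at 10.7 CPM per kb in Prmt5AKO with libraries from 6.81 to 16.7, lay below the Metrnl libraries, which ran from 23.0 to 35.8 CPM per kb.

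Between the libraries of 1 genotype or the other, 7 of the adipokines varied at least 2-fold. Replicate 1 was the lowest library of both genotypes for 7 adipokines, namely Adipoq, Retn, Rbp4, Apln, Cfd, Metrnl and Angptl4, and for Fam20a it was the lowest of Prmt5AKO. Lep and Nampt ran otherwise, with WT replicate 3 highest and Prmt5AKO replicate 3 lowest. WT replicate 1 and Prmt5AKO replicate 1 were also the libraries with the highest nuclear-retained RNA sums, 3137 and 3141 CPM, and the part of this in the adipokine levels was not tested. Over the 6 libraries the closest pair of centred log2 profiles among the adipokines was Apln and Metrnl, with a root mean square difference of 0.21, and the farthest was Retn and Nampt, at 1.26.

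**Figure D3:**
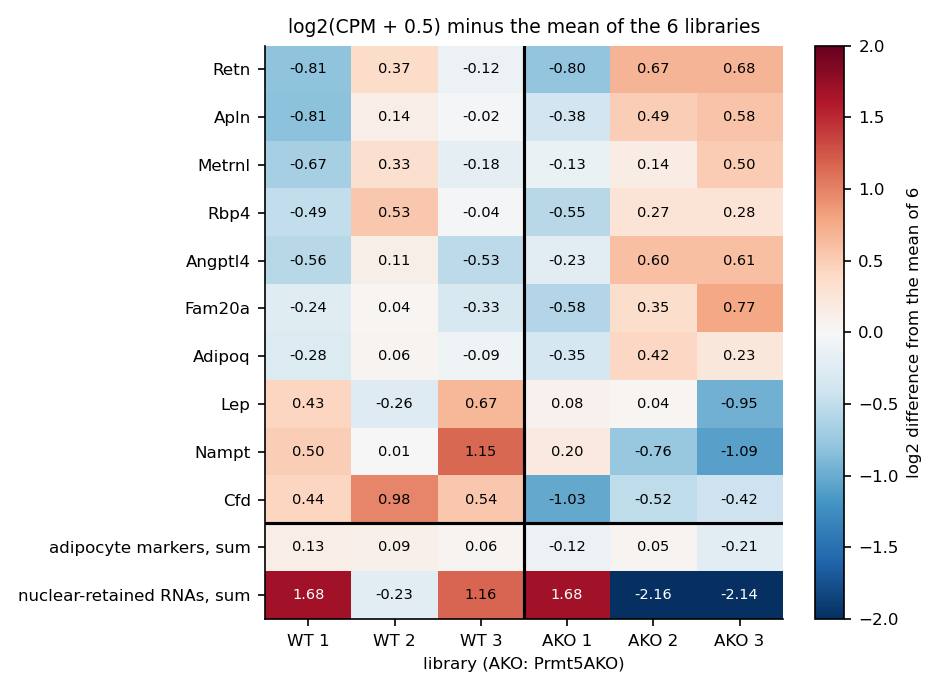
Log2(CPM + 0.5) of each adipokine in each library after subtracting its mean over the 6 libraries, with the sums of adipocyte markers and nuclear-retained RNAs in the bottom rows; red is above and blue below the mean. Retn, Apln and Metrnl are lowest in WT replicate 1 (-0.81, -0.81 and -0.67), Nampt is lowest in Prmt5AKO replicate 3 (-1.09), and Cfd is above its mean in all WT libraries and below it in all Prmt5AKO libraries.

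The genes with the profile most like each adipokine were sought among 11172 genes with a mean of at least 5 CPM, by the root mean square difference of centred log2 profiles over the 6 libraries, as a description. For Cfd they were Trf, which encodes transferrin (0.10), Prmt5 itself (0.17) and Acsm5 (0.17). Trf was at 2838, 3436 and 2533 CPM in WT and at 879, 1299 and 1521 CPM in Prmt5AKO, without overlap, as for Cfd. For Adipoq they were Cyb5d2 (0.02), Idh3g, which encodes a subunit of isocitrate dehydrogenase (0.05), and Psmc2, a proteasome subunit (0.05). For Retn they were Bola1, Drap1 and Krtcap2 (0.03, 0.03 and 0.04). Lep was closest to Hpgd, the prostaglandin-inactivating dehydrogenase (0.05), then Zfp180 (0.12) and Zfp748 (0.13). Hpgd was at 47.9, 30.7 and 56.0 CPM in WT and at 40.2, 39.2 and 18.5 CPM in Prmt5AKO, so it overlapped between genotypes as Lep did. Nampt was closest to Smim15 (0.07), Rap1a and Smim10l1 (both 0.14), and Angptl4 to Lmna, Abhd16a and Zfp787 (each 0.05). Rbp4 was closest to Kctd2, Trnau1ap and Dapk2 (0.08, 0.08 and 0.09), and Apln to Ndufb5, Clns1a and Lsm1 (each 0.05). Metrnl was closest to Fam57b, Samd1 and Rhbdd3 (0.07, 0.08 and 0.08), and Fam20a to Chst12 and Trim45 (0.05 and 0.06).

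**Figure D4:**
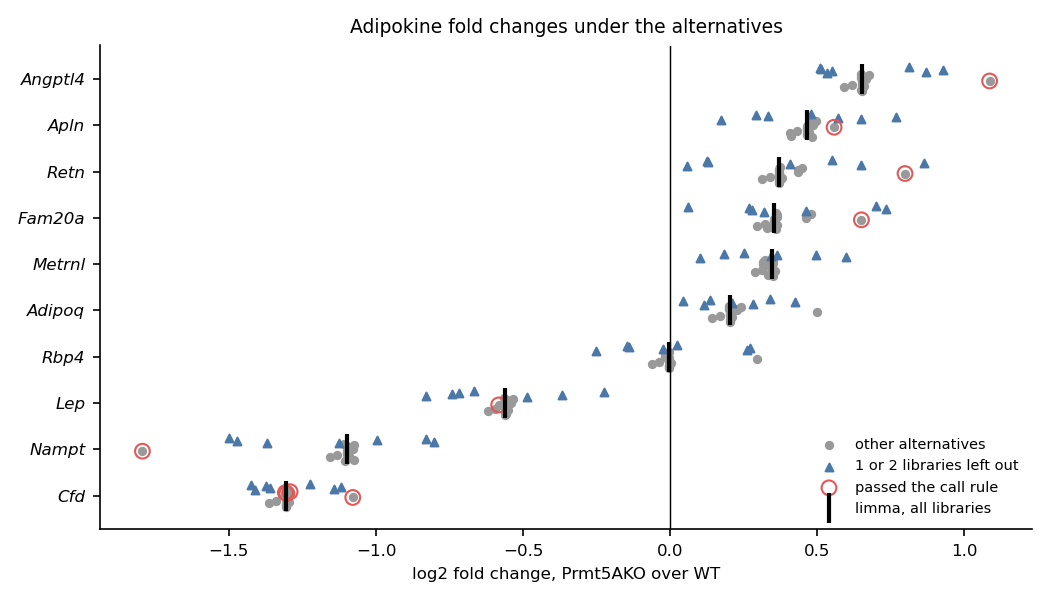
Log2 fold change of each adipokine under the 25 alternatives to the limma fit (black bars): blue triangles leave out 1 library or replicate 1 of both genotypes, grey points are the other alternatives, and red rings mark values that passed the call rule. All values of Cfd lie between -1.42 and -1.08 and those of Nampt between -1.79 and -0.80, and Rbp4 is the only gene with values on both sides of 0. The rings of all genes but Cfd come from the fit with array weights, whose estimation did not converge. Without that fit the highest value of Cfd is -1.12 and the lowest of Nampt -1.5.

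Adipokine partners, from receptors to assembly factors, had 0 genes called in limma. In the lists of partners DESeq2 called 2 genes, both among the retinoid genes, and edgeR's likelihood ratio test called 0. Over all 16109 genes these 2 tests called 301 and 162. Median log2 fold changes were 0.04 for receptors, -0.03 for leptin signalling, -0.49 for adiponectin assembly and signalling, -0.16 for complement, -0.41 for retinoid genes, 0.16 for NAD genes, -0.16 for lipoprotein lipase handling and -0.05 for regulators, beside -0.03 over all genes. The shares of all genes without overlap, 8.16% higher and 6.28% lower, are the background for the counts in these lists. Of 13 measured adipokine receptors, the genotypes overlapped for all, including Adipor1 and Adipor2, the adiponectin receptors, with log2 fold changes of 0.04 and -0.18, and Cap1, a resistin receptor in human monocytes, at 0.30. Of 12 genes of leptin signalling, the genotypes did not overlap for 4, all higher in Prmt5AKO. They included Stat3, the transcription factor downstream of the leptin receptor, at 101 to 123 CPM in WT and 142 to 171 CPM in Prmt5AKO, and the adaptor Grb2. Their adjusted p-values in limma were 0.601 and 0.603, and the phosphatase gene Ptpn11 overlapped. Of 11 genes of adiponectin assembly and signalling, Plod3, a lysyl hydroxylase that also glycosylates collagen-like chains, was at 97.2 to 153 CPM in WT and at 188 to 234 CPM in Prmt5AKO, with a log2 fold change of 0.80 (adjusted p = 0.474 in limma). Plod1 and Gstk1 overlapped, at log2 fold changes of 0.47 and 0.38.

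In the complement genes around adipsin, C3, the central component, was at 2628, 1387 and 1183 CPM in WT and at 1438, 975 and 1301 CPM in Prmt5AKO. Cfp, encoding properdin, had a log2 fold change of 0.00 with overlapping genotypes (adjusted p = 0.997 in limma). Of the 9 genes measured, the genotypes did not overlap for 1, Masp2, which was higher but never above 2.503 CPM.

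Of 16 retinoid genes around RBP4, the genotypes did not overlap for 1 that was higher and for 3 that were lower. The 3 were Aldh1a1, Aldh1a3 and Rdh10, enzymes that make retinoic acid or its precursor. Aldh1a1 was at 200, 202 and 238 CPM in WT and at 108, 119 and 77.3 CPM in Prmt5AKO, with a log2 fold change of -1.09 (adjusted p = 0.336 in limma). Dhrs3, which reduces retinaldehyde back to retinol, had a log2 fold change of 0.97 with overlapping genotypes, and the receptor gene Rxra one of 0.11.

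Among 16 genes of NAD metabolism the genotypes did not overlap for 2 that were higher and 1 that was lower. The most abundant, Nnmt, Nadk and Sirt2, all overlapped, with log2 fold changes of 1.00, 0.15 and 0.02. Among 10 genes of lipoprotein lipase handling, the pathway of Angptl4, all overlapped, and Lpl, Pnpla2 and Cd36 had log2 fold changes of -0.29, 0.30 and -0.90. Of 16 regulators of adipokine genes, the genotypes did not overlap for 2 that were higher (Cebpb, Stat5a) and 1 that was lower (Pparg). Over all genes these shares were 8.16% and 6.28%. Pparg, the master regulator of fat cell differentiation, was at 171, 176 and 206 CPM in WT and 134, 146 and 88.7 CPM in Prmt5AKO. Cebpb was at 57.4 to 93.7 CPM in WT and 109 to 142 CPM in Prmt5AKO. The adjusted p-values of Pparg and Cebpb in limma were 0.581 and 0.542. Cebpa, Rxra and Srebf1 overlapped.

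Close relatives of the adipokines had log2 fold changes of both signs. Fam20c, the kinase that FAM20A activates, was at 30.9, 26.1 and 25.9 CPM in WT and at 50.3, 129 and 88.7 CPM in Prmt5AKO. Its log2 fold change was 1.58 (adjusted p = 0.318 in limma). In this family 1 gene was called by DESeq2 and by edgeR's likelihood ratio test, which called 301 and 162 of all 16109 genes. Fam20b and the meteorin gene Metrn overlapped. Retnla and Retnlg, the resistin-like genes, overlapped at log2 fold changes of -0.35 and -1.69. Angptl2, Angptl6 and Angptl8 overlapped, at 0.43, 0.02 and -0.03. Of 7 C1q/TNF-related genes, relatives of adiponectin, only C1qtnf7 did not overlap, lower in Prmt5AKO, while C1qtnf12, C1qtnf1 and C1qtnf9 overlapped, at 0.46, 0.34 and 0.18.

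Among 38 other adipokine genes the genotypes did not overlap for 8 that were higher and 7 that were lower in Prmt5AKO. Over all genes the shares without overlap were 8.16% higher and 6.28% lower. Of the 38 genes 0 were called in limma. DESeq2 and edgeR's likelihood ratio test each called 4 of them, among 301 and 162 genes called in all. Without Prmt5AKO replicate 1 limma called 3 of them, and without replicate 1 of both genotypes 5, among 84 and 254 genes called in all. At an unadjusted p under 0.05 in limma 5 were higher and 5 lower, where 4.79% of all genes were higher and 3.93% lower. The median log2 fold change of the 38 genes was 0.23. Of the 3 most abundant, Apoe, encoding apolipoprotein E, was at 2500, 2399 and 2345 CPM in WT and at 2508, 3199 and 3080 CPM in Prmt5AKO, Hp, encoding haptoglobin, was at 765 to 1167 and 1390 to 1681 CPM, and Aoc3 overlapped. Rarres2, Saa3 and Dpp4 are named here because of their values. Rarres2, encoding chemerin, was at 123, 117 and 117 CPM in WT and at 225, 371 and 306 CPM in Prmt5AKO. Saa3, an acute-phase serum amyloid, was at 11.4, 11.9 and 8.54 CPM in WT and at 85.5, 73.2 and 41.0 CPM in Prmt5AKO. Dpp4, the peptidase that inactivates incretins, was at 81.3, 31.8 and 46.8 CPM in WT and at 16.7, 15.7 and 15.4 CPM in Prmt5AKO, and it is also a marker of the fibroblast progenitors that were lower as a sum. Log2 fold changes were 1.30, 2.54 and -1.61, with adjusted p-values of 0.301, 0.106 and 0.318 in limma.

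**Figure D5:**
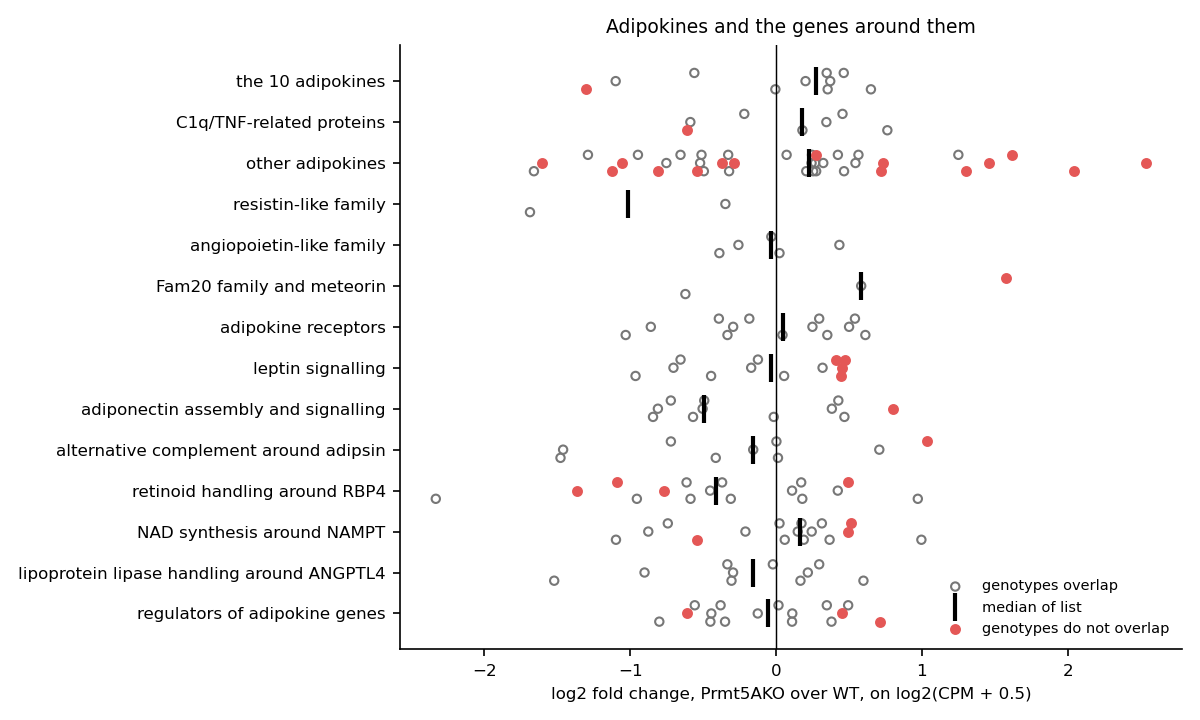
Log2 fold change of Prmt5AKO over WT for each measured gene of the 10 adipokines and of each list of related genes, one point a gene, with filled red points where the genotypes do not overlap and a black bar at each list's median. Cfd is the only filled point among the 10 adipokines, and the other adipokine genes hold 8 filled points above 0 and 7 below. Over all genes tested, 8.16% were higher and 6.28% lower without overlap.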

How the data were processed

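RNA-seq libraries of eWAT were made from polyA-selected RNA on an Illumina HiSeq (3 WT, 3 Prmt5AKO). The submitters' processing notes name FastQC 0.11.9, Trim Galore 0.6.0, STAR 2.7.10a, featureCounts (Subread 2.0.1) and the build GRCm38. The deposited values are a signal, gene counts that the authors scaled to counts per 1000000 reads (CPM) of a normalized library size, and 100% of them came out as whole reads (tolerance 0.05 reads). The study mentions a batch correction, but no batch is named in the sources used here, so no batch term was used.

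The test on log2(CPM + 0.5) took the genes that reached 0.5 CPM in 3 or more libraries and used limma 3.58.1 (lmFit, eBayes with trend) in R 4.3.3, with genotype as the only term. Calls needed an adjusted p (Benjamini-Hochberg, over all genes) under 0.05 and a log2 fold change beyond 0.5. Each adipokine was also compared by an exact two-sided permutation test on CPM. The fit was also run on simulated reads. These had the same dispersion for all genes and no library-wide differences beyond depth, unlike the libraries here. That run therefore does not show how many true changes the fit would call in these data. On the recovered reads, edgeR 4.0.16 and DESeq2 1.42.0 were run as alternatives; others changed pseudocount, filter, scaling, weights, prior or left out libraries. Levels per kilobase used exon lengths of GENCODE vM21, a GRCm38 annotation of an earlier release than the one the study names.

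The members and lists were chosen with earlier results of these data known. Named are all 10 adipokines, Prmt5, the 3 most abundant genes of each related list, 2 of each marker list and the 3 nearest profiles, with other genes named because of their values or because their genotypes did not overlap. Some genes that this rule names are not reported here. Genes not matched to the promoter table (Angptl4) have no sequence here. The authors' comparison columns (log2 fold changes, average log2 CPM, likelihood ratios, p-values, FDR) and their tables of enriched annotation terms were not used.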

Additional observations from a re-analysis of the deposited data

How the results depend on the processing

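Of the 10 adipokines, 9 had the same sign under all 25 alternatives, some of which keep the estimate unchanged. Most sizes rested on single libraries. Log2 fold changes with 1 library left out ran from 0.058 (without WT replicate 1) to 0.86 (without Prmt5AKO replicate 1) for Retn, 0.17 to 0.77 for Apln with the same libraries left out, 0.10 (without WT replicate 1) to 0.60 (without WT replicate 2) for Metrnl, 0.059 (without Prmt5AKO replicate 3) to 0.73 (without Prmt5AKO replicate 1) for Fam20a, 0.044 (without Prmt5AKO replicate 2) to 0.43 (without Prmt5AKO replicate 1) for Adipoq, and -0.83 (without WT replicate 2) to -0.22 (without Prmt5AKO replicate 3) for Lep. Rbp4, at -0.0049 in limma, turned to 0.0032 with median ratio scaling, 0.30 with array weights and 0.024 without replicate 1 of both genotypes, and ran from -0.25 to 0.27 when 1 library was left out (0.26 without WT replicate 2, 0.27 without Prmt5AKO replicate 1). Cfd was called by DESeq2, by edgeR's likelihood ratio test with and without the block, and with array weights, which made the count of called adipokines 1, 1, 1 and 7. With array weights 9322 genes were called, but their estimation did not converge and gave Prmt5AKO replicate 2 a weight of 20.03, so that count has no reading. Called genes numbered 0 in limma (1404 at an unadjusted p under 0.05), 0 in edgeR's quasi-likelihood test (1348) and 0 in limma-voom (1392), 1 without a trend in the prior (chosen after seeing the data), 162 in the likelihood ratio test and 301 in DESeq2. Leaving out 1 library gave 0 to 84, with 84 without Prmt5AKO replicate 1, and leaving out replicate 1 of both genotypes gave 254, with 0 adipokines among them.

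The labels number the replicates 1 to 3 in both genotypes, but the numbers were not taken to pair the samples. The deviations of same-numbered libraries correlated at 0.68, 0.57 and -0.11, and those of differently numbered libraries at -0.67 to 0.53. When the number entered as a replicate block, 129 genes were called in limma, 53 in the quasi-likelihood test and 682 in the likelihood ratio test of edgeR, of which 329, or 2.04% of all genes, were lower. Of the other adipokine genes 5, 2 and 9 were called in these fits. With the block Cfd had adjusted p-values of 0.176, 0.154 and 0.000882 in these fits. With 3 libraries a genotype, the 95% intervals of Adipoq (-0.86 to 1.26), Retn (-0.95 to 1.70) and Rbp4 (-0.94 to 0.93) hold sizeable changes in both directions on the log2 scale, although each library held at least 11809 reads of each of these genes.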

Other observations

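Markers of other cell types of the fat pad were also measured beside the adipokines, and the summed level separated the genotypes for T and NK cell markers. Of 8 smooth muscle and pericyte markers, 7 had positive log2 fold changes (median 0.79), and Acta2, smooth muscle actin, was at 475, 284 and 338 CPM in WT and at 438, 888 and 1099 CPM in Prmt5AKO, with overlap. All 8 T and NK cell markers had positive log2 fold changes (median 1.25). Their sum was 16.1, 30.7 and 23.0 CPM in WT and 42.0, 43.3 and 111 CPM in Prmt5AKO. The highest sum was thus that of Prmt5AKO replicate 3 alone, and the sums over 8 genes were small. Median log2 fold changes were 0.34 for 10 macrophage markers, -0.12 for 8 endothelial markers and -0.48 for 8 mesothelial markers, and the sums of these 3 lists and of the smooth muscle list overlapped between genotypes. In limma 0 of these genes were called.

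Among the adipocyte markers themselves, 3 did not overlap between genotypes and are named because of their values. Of these, 1 was lower and 2 were higher, beside 6.28% of all genes lower and 8.16% higher without overlap, so 3 of 19 is near the background. Plin4, which coats lipid droplets, was at 3249, 2373 and 1987 CPM in WT and at 1145, 945 and 892 CPM in Prmt5AKO. Gpd1, which makes glycerol-3-phosphate, was at 559, 686 and 819 CPM in WT and at 1225, 1211 and 1689 CPM in Prmt5AKO. Cidea, a lipid droplet protein typical of brown fat, was at 21.6, 11.2 and 59.8 CPM in WT and at 174, 186 and 128 CPM in Prmt5AKO. Their adjusted p-values in limma were 0.382, 0.473 and 0.301.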
